A study of Mus musculus with 24 samples.

Results

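The genes described here are 36 components of the postsynaptic density and of the signalling chain of long-term potentiation (LTP), out of 19756 genes with a named probe on the array. They form a list of symbols grouped by function, and each symbol was matched through the transcript identifier of its probes. All 36 were found, with 58 probes in all, and the brightest of its probes stands for each gene. RNA from whole mouse hippocampus was measured on Agilent one-colour arrays in 4 groups of 6 arrays (24 in all), and each array held the pooled RNA of 4 mice. CD F1 and MD F1 mice, labelled congenic C57BL/6J x 129S6/SvEv hybrids and called isogenic in the study's text, had fathers who had eaten a control diet (CD, T.2918.12) or a methyl donor-rich diet (MD, 3MS ZM, with added methionine, choline, betaine, folic acid, vitamin B12 and zinc) for 6 weeks before mating. CD F2 and MD F2 mice were the next generation, bred from male F1 offspring of either kind and female CD F1 mice, so that the diets were those of their grandfathers. They are labelled mixed C57BL/6J x 129S6/SvEv hybrids and were not isogenic, so that F2 pools can differ in genotype from each other and from F1. All F1 and F2 mice themselves ate the control diet, and the labels give an age of 4 weeks for every sample whereas the study's text calls the mice adult. Since each array is a pool, the p-values measure the spread between pools and not between animals.

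LTP is a lasting rise in synaptic strength that follows strong activation of NMDA receptors, and it is the most studied cellular model of memory in the hippocampus. Calcium that enters through these receptors binds calmodulin, which activates calcium/calmodulin-dependent kinases, calcium-sensitive adenylyl cyclases and the phosphatase calcineurin, and the signal reaches the nucleus through protein kinase A, MAP kinase and the transcription factor CREB. The receptors are held in place by layered scaffolds, in which membrane-associated guanylate kinases such as PSD-95 bind receptors and neuroligins, SAPAP proteins link these to Shank proteins, and Homer proteins tie Shank to metabotropic receptors and calcium stores. The study measured hippocampal LTP in F1 offspring, and setting MD F1 against CD F1 asks whether the messages of this machinery differed with the father's diet.

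For 5 members the 250 bases upstream of the RefSeq start site (GRCm38.p6, from RefSeq's annotation) are shown, because the signals of Nrgn, Prkaca, Homer3 and Dlgap3 were low on nearly the same F2 arrays while Camkk1 was high on most of those arrays, as described below. Each is written 5′ to 3′ in the direction of the gene, and capitals mark the half-site TGACG of the cAMP response element, the sequence that CREB binds, and the GC box GGGCGG, each on either strand (CGTCA and CCGCCC on the other one). The Dlgap3 window holds neither. For Prkaca the first of its 2 windows is shown.
Nrgn, chr9:37552746-37552995, minus strand: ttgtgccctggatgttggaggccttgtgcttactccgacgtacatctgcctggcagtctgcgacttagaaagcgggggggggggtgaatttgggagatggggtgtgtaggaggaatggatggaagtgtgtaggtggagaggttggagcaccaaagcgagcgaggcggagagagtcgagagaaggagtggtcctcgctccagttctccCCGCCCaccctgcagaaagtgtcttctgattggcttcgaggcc
Prkaca, chr8:83972728-83972977, plus strand: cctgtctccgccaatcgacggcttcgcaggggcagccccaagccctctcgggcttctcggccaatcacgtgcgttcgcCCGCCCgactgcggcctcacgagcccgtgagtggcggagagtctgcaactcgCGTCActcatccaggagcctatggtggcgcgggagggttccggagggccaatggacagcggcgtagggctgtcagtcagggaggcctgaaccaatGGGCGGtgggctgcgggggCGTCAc
Homer3, chr8:70282749-70282998, plus strand: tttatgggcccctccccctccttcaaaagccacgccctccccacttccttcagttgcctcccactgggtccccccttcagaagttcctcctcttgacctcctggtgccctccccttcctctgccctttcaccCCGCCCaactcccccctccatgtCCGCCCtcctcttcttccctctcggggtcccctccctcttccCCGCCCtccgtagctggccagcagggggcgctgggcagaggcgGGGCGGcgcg
Dlgap3, chr4:127172630-127172879, plus strand: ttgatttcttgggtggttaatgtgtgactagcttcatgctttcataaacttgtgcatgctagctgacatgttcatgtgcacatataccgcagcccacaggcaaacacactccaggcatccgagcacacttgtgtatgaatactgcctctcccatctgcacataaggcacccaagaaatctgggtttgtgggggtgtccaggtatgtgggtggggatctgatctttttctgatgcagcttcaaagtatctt
Camkk1, chr11:73018738-73018987, plus strand: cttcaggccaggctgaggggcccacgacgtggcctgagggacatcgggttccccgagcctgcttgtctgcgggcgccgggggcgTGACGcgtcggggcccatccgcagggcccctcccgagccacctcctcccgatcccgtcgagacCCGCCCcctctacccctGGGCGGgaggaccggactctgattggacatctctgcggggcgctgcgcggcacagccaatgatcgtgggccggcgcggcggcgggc
Of the 36 members, 25 have a window in the table used. The GC box occurred in 17 of these 25 and in 32.9% of the windows of all 27025 genes of that table. The half-site TGACG occurred in 5 of the 25 and in 17.9% of all windows, while the full element TGACGTCA, which holds that half-site, occurred in none of the 25 and in 1.62% of all. The members' windows held a median of 25 CG dinucleotides, against 6 over all genes, and among the 5 windows shown Camkk1 held 29, Prkaca 25, Nrgn 11, Homer3 11 and Dlgap3 2. These matches are descriptions of the letters only.

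At their brightest probes, all 36 members were well above background on all 24 arrays and none was saturated. The 8 markers of hippocampal neurons were also above background on every array. Median intensity per array ranged from 148 to 318, and between 27383 and 37013 spots were above background. Median intensity was lower in MD F1 (167 to 262, mean 226) than in CD F1 (251 to 318, mean 280), with overlapping ranges. It was 151 to 262 in CD F2 and 148 to 262 in MD F2. The mean number of spots above background was 35736 in CD F1 and 34791 in MD F1. The part of intensity in the F1 differences was not tested. On MD F1 replicate 6 the mean correlation with the other F1 arrays was 0.985, while the other 11 F1 arrays lay at 0.992 or above, and it had the lowest median intensity of F1 (167). The fewest spots above background (28000 and 27383) and the lowest mean correlations (0.977 and 0.974) were those of replicate 6 of CD F2 and replicate 3 of MD F2. A measure of pool sex, the mean log2 signal of 4 Y-linked genes minus that of Xist, spanned −2.30 to −1.90 in CD F1 and −2.15 to 0.16 in MD F1, where the highest value was that of MD F1 replicate 6. In F2 it lay between −7.66 and −7.43 on CD F2 replicates 3 and 5 and MD F2 replicate 6 and between 5.23 and 7.26 on the other 9 arrays, so the F2 pools differed in sex within each diet group.

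In F1 hippocampus most of the machinery read slightly lower in MD F1 than in CD F1, but no member was called. The log2 fold change was below 0 for 29 of 36 members (80.6%), against 45.3% of the brightest probes of all genes. Their median log2 fold change was −0.063, against 0.02 over all genes. At a false discovery rate (FDR) under 0.1 over all probes, limma called 13 of 39429 probes (0.033%), among them the brightest probes of 0.0202% of genes, and none of the members, whose lowest FDR was 0.213. At an unadjusted p under 0.05, 6 of 36 members (16.7%) differed, 1 higher and 5 lower, while over the brightest probes of all genes 13.4% did, 7.82% higher and 5.54% lower. The share of members that differed was thus near the background in all, and it lay above the background among the lower genes.

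The small shift was not the same on every array. The median deviation of the members from the CD F1 mean was −0.21 on MD F1 replicate 5 and −0.17 on MD F1 replicate 6, and lay between −0.078 and 0.0084 on the other 4 MD F1 arrays. The CD F1 arrays spanned −0.055 to 0.082, so that the groups overlapped. Within slides, each of which held 2 arrays of either diet, the members' median difference was 0.029 on slide 1, −0.13 on slide 2 and −0.12 on slide 3. Without MD F1 replicate 5 the median log2 fold change of the members was −0.041 and 23 of 36 lay below 0, and without MD F1 replicate 6 it was −0.079 with 26 below 0. Markers of several cell types were also mostly below 0. In F1 the median log2 fold change was −0.13 for the 8 hippocampal neuron markers (1 of 8 lower at an unadjusted p under 0.05), −0.056 for 6 general neuron markers (1 lower), −0.10 for 6 astrocyte markers (1 lower) and −0.19 for 7 oligodendrocyte markers (2 lower), while it was 0.035 for 6 microglial markers (1 lower) and 0.57 for 7 choroid plexus markers. It was −0.11 for 6 interneuron and −0.13 for 5 endothelial markers with none past that threshold. Markers of neighbouring regions had −0.25 (5 thalamic, 1 lower) and −0.21 (7 striatal, 1 lower). The mean level of the thalamic markers ranged from 8.27 to 8.41 in CD F1 and from 7.78 to 8.27 in MD F1, and that of the striatal markers from 8.999 to 9.26 and from 8.82 to 9.16. The mean log2 level of the hippocampal neuron markers ranged from 12.49 to 12.67 in CD F1 and from 12.24 to 12.59 in MD F1, and that of the oligodendrocyte markers from 14.58 to 14.95 and from 14.13 to 14.76. In F1 all of these markers but 1 thalamic one were above background on every array, and their part in the shift was not tested. In whole tissue, fewer cells of a type and less RNA per cell cannot be told apart.

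**Figure D1:**
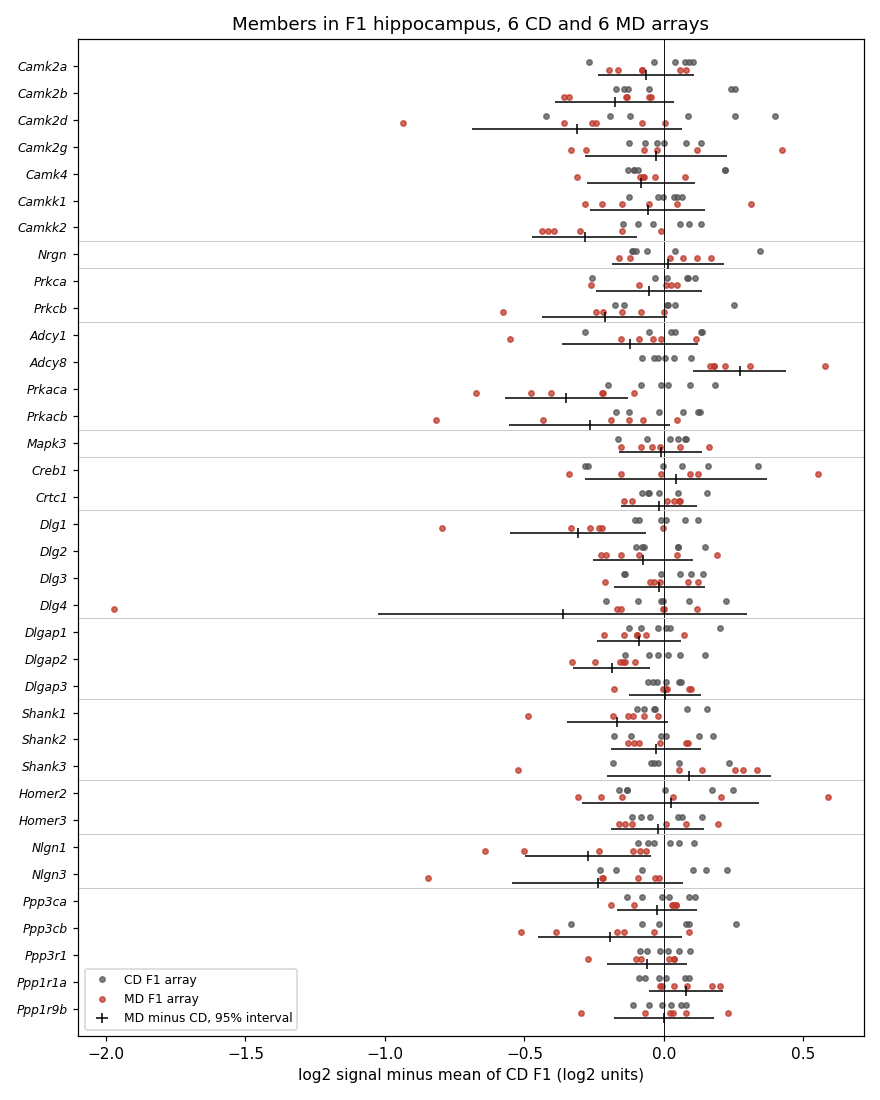
Log2 signal of each of the 36 members on the 6 CD F1 arrays (grey) and the 6 MD F1 arrays (red), as the difference from the CD F1 mean (x axis, log2 units), grouped by role. The black mark and line give the MD minus CD difference and its 95% interval. Only Adcy8 lies wholly to the right, and the leftmost point, Dlg4, belongs to MD F1 replicate 6.

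The largest difference towards higher signal among the members, and the smallest p, belonged to Adcy8, a calcium-stimulated adenylyl cyclase that makes cAMP when calmodulin is loaded with calcium. Its log2 signal had a lowest, median and highest value of 8.98, 9.04 and 9.15 in CD F1 and of 9.22, 9.25 and 9.63 in MD F1. All 6 MD F1 arrays lay above all 6 CD F1 arrays, as was true in that direction for 0.906% of the brightest probes of all genes (1.67% in either direction). MD F1 was higher by a log2 fold change of 0.27 (SE 0.076, 121% of the CD F1 level, unadjusted p = 0.00384, FDR 0.213 by limma), and the two-sided exact permutation test over 924 splits gave 0.00216, the smallest value it can give. It was higher on each of the 3 slides, by 0.28, 0.37 and 0.16. Without MD F1 replicate 6, the highest array, the log2 fold change was 0.21. In F2 the groups overlapped, with 8.45, 8.61 and 8.88 in CD F2 and 8.61, 8.68 and 8.81 in MD F2.

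Of the other 3 members of the cAMP arm, 1 had an unadjusted p under 0.05 in F1. Prkaca encodes a catalytic subunit of protein kinase A, the kinase that cAMP releases. Its log2 signal spanned 8.62 to 9.01 with a median of 8.83 in CD F1 and 8.15 to 8.72 with a median of 8.51 in MD F1. Of the 6 MD F1 arrays, 5 lay below the lowest CD F1 array. The log2 fold change was −0.35 (SE 0.10, 78.4% of the CD F1 level, unadjusted p = 0.00463, FDR 0.214 by limma), and the two-sided exact permutation p was 0.00433. Within slides it was −0.21, −0.45 and −0.40. With all 24 arrays in the fit it was −0.36 and no longer passed an unadjusted p of 0.05. The second catalytic subunit gene, Prkacb, had −0.27 (SE 0.13, unadjusted p = 0.068 by limma), and Adcy1, the other calcium-stimulated cyclase, had −0.12. Without MD F1 replicate 6 these were −0.16 and −0.036. In F2 the Prkaca signal varied far more than in F1, from 9.39 to 10.52 in CD F2 and from 9.21 to 10.40 in MD F2, and the diet difference of −0.30 had a standard error of 0.26 and was −0.18 without MD F2 replicate 5.

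All 7 calcium/calmodulin kinase genes had log2 fold changes below 0 in F1, with a median of −0.083, and 1 of the 7 had an unadjusted p under 0.05. That gene was Camkk2, a kinase that phosphorylates and activates CaMKI and CaMKIV. Its log2 signal spanned 14.84 to 15.12 (median 15.00) in CD F1 and 14.55 to 14.98 (median 14.64) in MD F1, and 5 of 6 MD F1 arrays lay below all CD F1 arrays. This is a log2 fold change of −0.28 (SE 0.087, 82.1% of CD F1, unadjusted p = 0.00656, FDR 0.221 by limma, two-sided exact permutation p 0.0130). With each array scaled to its 75th percentile in place of quantile normalisation it was −0.21 and no longer passed an unadjusted p of 0.05, and its second probe (−0.37) did not pass. Camk2b, the beta subunit of CaMKII, which binds actin, spanned 16.87 to 17.30 in CD F1 and 16.68 to 17.00 in MD F1, and its difference of −0.18 did not pass (unadjusted p = 0.098 by limma). Camk2d had −0.31 with a standard error of 0.17 (−0.19 without MD F1 replicate 6), Camk4 −0.083, Camkk1 −0.058 and Camk2g −0.028, all with overlapping groups.

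Camk2a encodes the alpha subunit of CaMKII, the kinase whose activation is required for LTP at hippocampal synapses. In F1 the log2 signal of its brighter probe was between 13.60 and 13.98 (median 13.93) in CD F1 while MD F1 lay between 13.67 and 13.95 (median 13.79), a difference of −0.065 (unadjusted p = 0.430 by limma). The dimmer probe had −0.59 in F1 (SE 0.29, 66.5% of CD F1), with 3 of 6 MD F1 arrays below all CD F1 arrays, and did not pass either. In F2 it was 13.67, 13.86 and 14.08 (lowest, median and highest) in CD F2 and 13.94, 14.10 and 14.47 in MD F2. The ranges overlapped, and 3 of 6 MD F2 arrays lay above the highest CD F2 array. In log2 units MD F2 was higher by 0.27 (SE 0.10, 121% of CD F2, unadjusted p = 0.0196, FDR 0.890 by limma, two-sided exact permutation p 0.0173). Within the 3 F2 slides the difference was 0.30, 0.46 and 0.063. The dimmer probe had 0.19 in F2 (SE 0.15) and did not pass an unadjusted p of 0.05, nor did the mean of both probes (0.23) or the brighter one without scaling between arrays. The difference between the generations, F1 minus F2, was −0.35 (SE 0.13, unadjusted p = 0.0128, FDR 0.475 by limma).

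**Figure D2:**
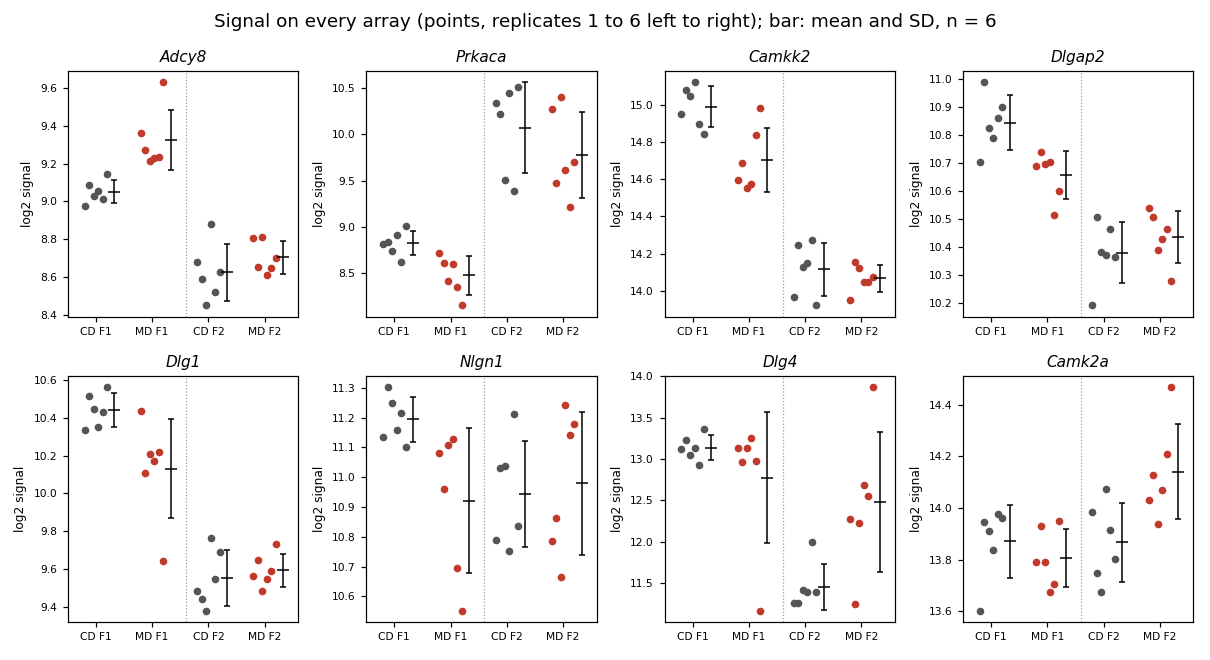
Log2 signal (y axis, a scale of its own in each panel) of 8 members on every array, with CD in grey, MD in red and the mean and SD of each group of 6 beside the points. F1 and F2 were normalised separately, so levels are to be compared within a generation. Adcy8 is separated between CD F1 and MD F1, and in F2 5 of 6 MD arrays of Dlg4 lie above all CD arrays.

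Nrgn encodes neurogranin, which holds calmodulin in the spine until calcium rises or protein kinase C phosphorylates it. In F1 its signal spanned 15.09 to 15.55 in CD F1 and 15.04 to 15.37 in MD F1, and the difference of 0.015 (SE 0.093) was far inside that spread. The protein kinase C genes Prkca and Prkcb had −0.054 and −0.21 in F1 (Prkcb unadjusted p = 0.061 by limma, −0.14 without MD F1 replicate 6), the first on 11 arrays because 1 spot on MD F1 replicate 1 was irregular. Mapk3, which encodes the MAP kinase ERK1, spanned 13.01 to 13.26 in CD F1 and 13.02 to 13.34 in MD F1, a difference of −0.012 (SE 0.069). Creb1, the transcription factor CREB, had 0.044 (SE 0.15) and its coactivator Crtc1 had −0.017 (SE 0.063). The intervals of these differences, −0.28 to 0.37 for Creb1, −0.15 to 0.12 for Crtc1 and −0.16 to 0.14 for Mapk3, show how far the arrays limit them. In F2 the differences were 0.0032 for Nrgn, 0.022 for Mapk3, −0.0053 for Creb1 and 0.071 for Crtc1, and none passed at an unadjusted p of 0.05.

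Among the scaffolds, the 4 membrane-associated guanylate kinase genes were below 0 in F1, and 1 of the 4 passed at an unadjusted p of 0.05. Dlg1, which encodes SAP97, a carrier of AMPA and NMDA receptors, spanned 10.34 to 10.56 (median 10.44) in CD F1 and 9.64 to 10.44 (median 10.19) in MD F1, with 5 of 6 MD F1 arrays below all CD F1 arrays. The log2 fold change was −0.31 (SE 0.11, 80.7% of CD F1, unadjusted p = 0.0171, FDR 0.274 by limma, two-sided exact permutation p 0.00866). Within slides it was −0.036, −0.55 and −0.34, and with the pool sex measure as a covariate it was −0.12 and no longer passed. Dlg2 (PSD-93) had −0.074 and Dlg3 (SAP102) −0.017 in F1.

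Dlg4 encodes PSD-95, the main scaffold of the postsynaptic density, and it varied more than any other member. In CD F1 its log2 signal spanned 12.93 to 13.36 (median 13.13). In MD F1 5 arrays lay between 12.97 and 13.26 and replicate 6 was at 11.17. The F1 difference was −0.36 (SE 0.30), and without that array it was −0.041. In F2 the log2 signal was 11.26, 11.39 and 11.998 (lowest, median and highest) in CD F2. In MD F2 replicates 1 to 6 read 12.28, 11.25, 12.23, 12.69, 12.56 and 13.87, so that 5 of 6 lay above the highest CD F2 array and 1 lay below the lowest. The difference was 1.03 in log2 units (SE 0.34, 204% of CD F2, unadjusted p = 0.0110, FDR 0.890 by limma, two-sided exact permutation p 0.0152). It was 1.44, 0.57 and 1.07 within slides 4, 5 and 6, and leaving out 1 F2 array at a time gave 0.75 to 1.27. The diet effects of the generations differed by −1.42 (F1 minus F2, SE 0.48, unadjusted p = 0.00670, FDR 0.429 by limma), and by −1.11 without MD F1 replicate 6. The array held a single named probe of Dlg4.

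The SAPAP linkers, which join PSD-95 to Shank, comprised Dlgap1, Dlgap2 and Dlgap3. Dlgap2 spanned 10.704 to 10.99 (median 10.84) in CD F1 and 10.51 to 10.74 (median 10.69) in MD F1, where 4 of 6 arrays lay below all CD F1 arrays. Its log2 fold change was −0.19 (SE 0.064, 87.8% of CD F1, unadjusted p = 0.0124, FDR 0.257 by limma, two-sided exact permutation p 0.00649). It was −0.050, −0.28 and −0.24 within slides. Dlgap1 had −0.090 and Dlgap3 0.0040 in F1, and in F2 none of the 3 passed at an unadjusted p of 0.05.

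Shank proteins form the deep layer of the density, and Shank3 is known for its link to autism in people. In F1 Shank3 spanned 12.42 to 12.83 in CD F1 and 12.08 to 12.94 in MD F1, a difference of 0.090 (SE 0.14) with MD F1 replicate 6 lowest. Shank1 had −0.17 in F1 (SE 0.083, unadjusted p = 0.068 by limma, −0.10 without MD F1 replicate 6), with 4 of 6 MD F1 arrays below all CD F1 arrays, and Shank2 had −0.029. The Homer adaptors had 0.023 (Homer2) and −0.022 (Homer3) in F1. Leaving out 1 array gave −0.089 to 0.090 for Homer2 and −0.066 to 0.0052 for Homer3.

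The neuroligins are postsynaptic adhesion proteins that bind neurexins across the cleft. Nlgn1, found at excitatory synapses, spanned 11.10 to 11.30 (median 11.19) in CD F1 and 10.55 to 11.13 (median 11.02) in MD F1, and 4 of 6 MD F1 arrays lay below all CD F1 arrays. Its difference was −0.27 (SE 0.10, 82.8% of CD F1, unadjusted p = 0.0215, FDR 0.291 by limma, two-sided exact permutation p 0.00866). It was −0.042, −0.43 and −0.35 within slides, and with the pool sex measure as a covariate it was −0.18 and no longer passed. Nlgn3 had −0.24 (SE 0.14) at its brighter probe, and −0.12 without MD F1 replicate 6. In F2 Nlgn1 had 0.036 and Nlgn3 0.048.

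Phosphatases act against the kinases, and 5 members encode phosphatase subunits or regulators of phosphatases. Ppp3ca encodes the catalytic A-alpha subunit of calcineurin, the calmodulin-dependent phosphatase needed for long-term depression. It spanned 17.33 to 17.58 in CD F1 and 17.28 to 17.51 in MD F1, a difference of −0.025 (SE 0.066, 95% interval −0.17 to 0.12). The other catalytic gene, Ppp3cb, had −0.19 (SE 0.12), and Ppp3r1, the calcium-binding subunit, had −0.060. Ppp1r1a, an inhibitor of protein phosphatase 1, had 0.079, and Ppp1r9b, the spine protein spinophilin that targets this phosphatase, had −0.0003. None of the 5 passed at an unadjusted p of 0.05 in either generation, and in F2 Ppp3r1 came nearest, at 15.29 to 15.76 in CD F2 and 15.57 to 15.82 in MD F2, with 0.19 (SE 0.095, unadjusted p = 0.068 by limma).

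Of the 36 members, 18 had more than 1 named probe, with 22 other probes in all. These probes were looked at after the values of the brightest ones were seen. Whether they were above background is not given here. In F1, 19 of the 22 were below 0 with a median of −0.21, against 48.5% of all probes and a median of 0.0065. Of the 22, 7 had an unadjusted p under 0.05, all of them lower, where 7.48% of all probes were lower at that threshold. The dimmer probe of Nlgn3 had the largest separation, at 5.75 to 6.17 in CD F1 and 4.72 to 5.73 in MD F1. These are the lowest log2 signals given here for any probe. All 6 MD F1 arrays lay below all 6 CD F1 arrays, as 0.764% of the brightest probes of all genes and 1.07% of all probes did in that direction. Its log2 fold change was −0.61 (SE 0.16, unadjusted p = 0.00194, FDR 0.202 by limma, two-sided exact permutation p 0.00216), against −0.24 at the brighter probe. The others at an unadjusted p under 0.05 were dimmer probes of Camk4 (−0.63), Dlg1 (−0.37), Dlg2 (−0.28), Dlgap1 (−0.28), Camk2d (−0.27) and Creb1 (−0.22). Creb1's brighter probe had 0.044, so its 2 probes differed in sign. In F2 none of the 22 had an unadjusted p under 0.05 in limma, where 5.6% of all probes did.

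In F2 the members as a group did not lean to either side. The median log2 fold change of MD F2 against CD F2 was 0.017, against 0.0054 over all genes, with 21 members above 0 and 15 below. No probe of the array was called at an FDR under 0.1 (0%), where limma had 2209 probes at an unadjusted p under 0.05, and the lowest FDR of a member was 0.890. At an unadjusted p under 0.05 in limma, 2 of 36 members (5.56%) differed, Dlg4 and Camk2a, both higher, where 5.65% of all genes' brightest probes did 2.84% higher and 2.81% lower. No member had groups that did not overlap, and 0.38% of all genes did. Within slides the members' median difference was 0.12, −0.018 and −0.030. The 7 choroid plexus markers had a median log2 fold change of −2.29 in F2, with none past an unadjusted p of 0.05 by limma. Their mean log2 level ranged from 7.13 to 12.91 in CD F2 and from 7.10 to 12.17 in MD F2. The medians of the other marker lists lay between −0.085 and 0.15. The part of the tissue in the F2 values was not tested.

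**Figure D3:**
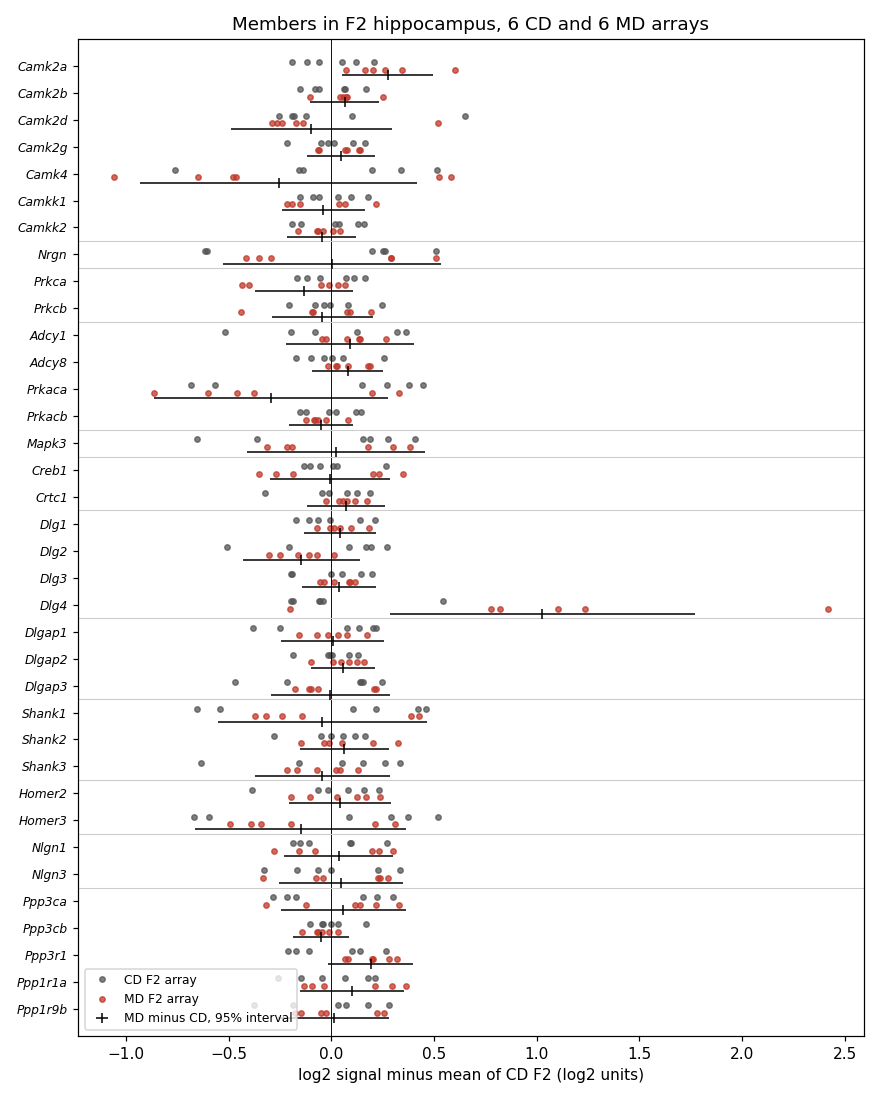
Log2 signal of the 36 members on the 6 CD F2 arrays (grey) and the 6 MD F2 arrays (red), as the difference from the CD F2 mean (x axis, log2 units), grouped by role, with the MD minus CD difference and its 95% interval in black. Most intervals span 0, Dlg4 and Camk2a do not, and several genes, Prkaca and Nrgn among them, spread over about the same wide range in both diets.

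Whether the diet effect differed between the generations was tested for each member as the diet by generation interaction over all 24 arrays. At an FDR under 0.1 limma called 5 of 39423 probes (0.0127%), each the brightest of its gene (0.0253% of genes), and no member, whose lowest FDR was 0.429. At an unadjusted p under 0.05, 5 of 36 members (13.9%) differed, and all had a lower diet effect in F1 than in F2, where 7.99% of all genes' brightest probes differed, 3.45% in that direction and 4.54% in the other. Apart from Dlg4 and Camk2a these were Dlg1 (−0.35, SE 0.14, FDR 0.497 by limma), Dlgap2 (−0.24, SE 0.092, FDR 0.494) and Ppp3r1 (−0.26, SE 0.12, FDR 0.569). Dlgap2 no longer passed without scaling between arrays (−0.45), and the second probe of Dlg1 (−0.35) did not pass. Ppp3r1 no longer passed in 13 of its 38 alternative settings. Among these were fits without CD F1 replicate 1 or 2 or MD F1 replicate 1 or 5. Fits without CD F2 replicate 1, 4 or 6 or MD F2 replicate 5 or 6 were also among them. These fits with 1 array left out gave −0.25 to −0.21. The median over the members was −0.090, against 0.009 over all genes. For Adcy8 this difference was 0.19 (SE 0.11, FDR 0.657 by limma) and for Prkaca −0.058 (SE 0.29, FDR 0.982), and neither passed an unadjusted p of 0.05.

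**Figure D4:**
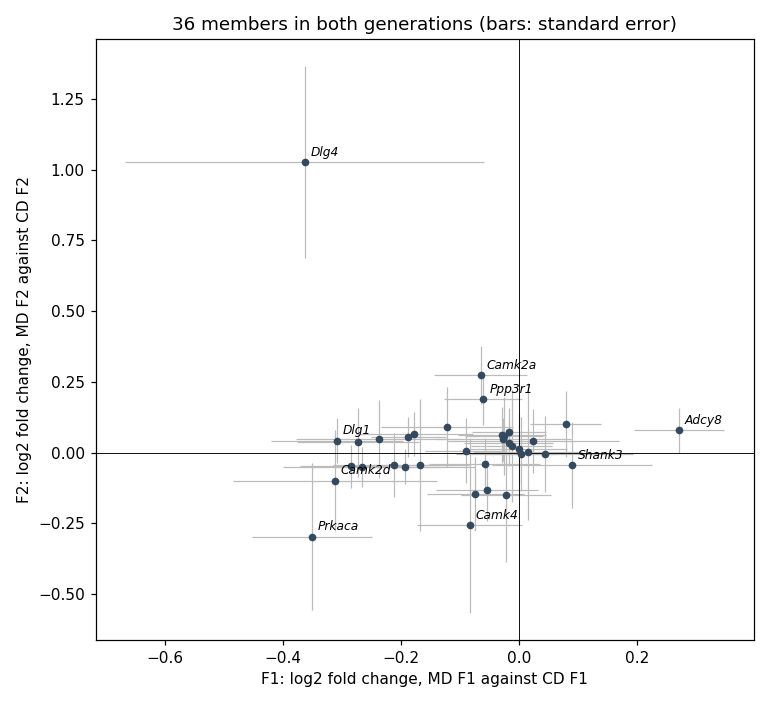
Log2 fold change of MD against CD in F1 (x axis) and in F2 (y axis) for the 36 members, with standard errors as bars. Dlg4 stands apart at −0.36 and 1.03, Adcy8 lies furthest to the right and Prkaca lies low on both axes.

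Other genes of the LTP pathway, a list of 89 further components of which 87 had a probe, were read in the same way. In F1, 13 of 87 (14.9%) had an unadjusted p under 0.05, near the 13.4% of all genes, with 3 higher and 10 lower (11.5%, against 5.54% of all genes). The median log2 fold change was −0.057, and 53 of 87 (60.9%) were below 0, against 45.3% of all genes. Lowest in p were Cnksr2, a scaffold of the density that binds Ras pathway proteins, Magi2, a scaffold that binds neuroligins and SAPAP proteins, and Rap1b, a small GTPase. Cnksr2 spanned 12.68 to 13.30 in CD F1 and 12.25 to 12.65 in MD F1 without overlap (−0.44, unadjusted p = 0.00198, FDR 0.202 by limma). Magi2 had −0.32 (FDR 0.214) and Rap1b −0.28 (FDR 0.216). The 3 that were higher were the cyclase Adcy9 (0.19), the GTPase Nras (0.21) and the CREB coactivator Crtc2 (0.24). In F2, 2 of 87 (2.30%) had an unadjusted p under 0.05 in limma, 1 higher and 1 lower, against 5.65% of all genes. The lower one was Crebbp, the CREB-binding acetyltransferase, at 14.09 to 14.43 in CD F2 and 13.93 to 14.12 in MD F2, with overlapping groups (−0.21, SE 0.069, FDR 0.890 by limma). The median over the 87 was −0.003 in F2.

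Within F2 a set of members varied together from array to array, in both diet groups. Nrgn read 16.42, 16.11, 15.29, 16.17, 15.31 and 16.16 on CD F2 replicates 1 to 6 and 16.42, 15.62, 16.20, 15.56, 15.49 and 16.20 on MD F2 replicates 1 to 6. The values thus lay in a high and a low range, and the 5 low ones belonged to CD F2 replicates 3 and 5 and MD F2 replicates 2, 4 and 5. The pattern was noticed in these data, and no test was made of it. The 5 lowest arrays were the same for Prkaca, Mapk3, Dlgap3, Shank1 and Shank3, and in all 13 of the other 35 members (37.1%) shared at least 4 of these 5, where 16.2% of all other genes did. Homer3, Adcy1, Prkacb, Crtc1, Dlg2, Nlgn3, Ppp1r1a and Ppp1r9b were the rest of the 13. At the other end, 6 of 35 members (17.1%) had at least 4 of these 5 arrays among their 5 highest, a share near that of all genes (16.3%), and they were Ppp3ca, Ppp3cb, Ppp3r1, Camkk1, Nlgn1 and Creb1. In F1, 1 of 34 members shared at least 4 of the 5 arrays lowest in Nrgn, against 5.28% of all genes.

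The spread behind this pattern was large for some members. Within groups, the SD of the log2 signal in F2 was 0.45 for Nrgn, 0.48 for Prkaca, 0.43 for Homer3, 0.43 for Shank1 and 0.36 for Mapk3, against 0.16, 0.18, 0.12, 0.14 and 0.10 in F1. Over the members the median SD was 0.15 in F1 and 0.20 in F2, against 0.18 and 0.22 over all genes. The standard errors of the F2 diet differences of these genes were 0.20 to 0.26. The 5 arrays lay on slides 4, 5 and 6 and carried both of the codes lh and rh, which the F2 labels give without saying what they mean. The pool sex measure was −7.57 and −7.66 on CD F2 replicates 3 and 5 and 6.996, 7.02 and 7.26 on the 3 MD F2 arrays. Their median intensity ranged from 199 to 262, against 148 to 250 on the other 7. The mean log2 level of the oligodendrocyte markers was 14.40 to 14.53 on the 5 arrays, 14.27 on MD F2 replicate 6 and 14.69 to 14.96 on the other 6. That of the general neuron markers was 14.98 to 15.05 on the 5 and 15.02 to 15.18 on the other 7. Hippocampal neuron markers lay at 12.72 to 12.85 on the 5 and 12.75 to 12.98 on the other 7. Thalamic markers lay at 7.81 to 8.38 and 8.17 to 8.70. The other marker lists are not set against these arrays here. The part of these measures in the pattern was not tested.

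**Figure D5:**
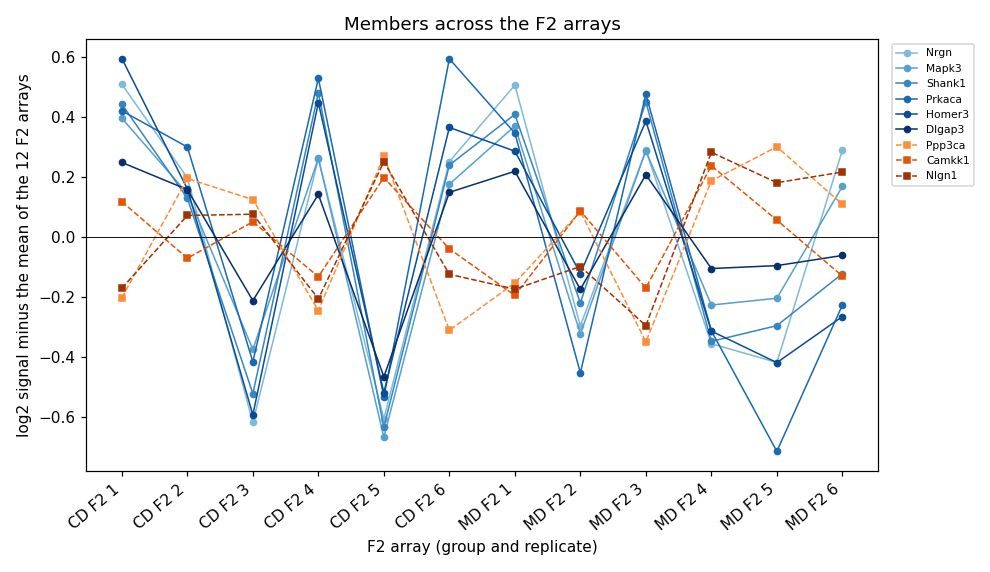
Log2 signal of 9 members on the 12 F2 arrays, as the difference from each gene's F2 mean (y axis, log2 units). Nrgn, Mapk3, Shank1, Prkaca and Dlgap3 (blue circles) are lowest on CD F2 replicates 3 and 5 and MD F2 replicates 2, 4 and 5. Homer3 (also blue) has MD F2 replicate 6 among its 5 lowest arrays in place of MD F2 replicate 2. Ppp3ca, Camkk1 and Nlgn1 (orange squares) mostly lie on the other side of the line.

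With all 24 arrays normalised together, the levels of many members differed between CD F1 and CD F2. In 19 of 36 members the groups did not overlap, 15 of them higher and 4 lower in CD F2, and over all genes 41.2% did not overlap, 20.6% higher and 20.6% lower. The higher ones were led by Homer3 (mean log2 signal 8.50 in CD F1 and 10.27 in CD F2, a difference of 1.77), Prkaca (8.67 and 10.22, 1.55), Nrgn (14.86 and 16.32, 1.46) and Mapk3 (12.92 and 14.26, 1.33). The lower ones were Dlg4 (12.88 and 11.66, −1.23), Ppp3ca (17.09 and 16.48, −0.61), Dlg1 (−0.60) and Dlg3 (−0.60). For Dlg4 the mean of MD F2 was 12.73, between those of CD F1 and CD F2. The generations shared no slide and no scan day and differed in cross and in the sex of the pools, and these cannot be told apart.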

How the data were processed

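Hippocampal RNA was amplified, labelled with Cy3 and hybridised to Agilent mouse 4x44K v2 arrays. The deposited files hold the intensity of each spot as written by Agilent Feature Extraction (version 10.7.3.1 in the file headers, another than the methods state), and the processed signal used here is background-subtracted and linear. The authors' processed table, intensity values quantile-normalised within each generation, was an alternative only. Depth is given as median intensity and as spots above background, and the number of arrays limits the precision. Irregular spots (1939 in F1, 2097 in F2) were left out, log2 signals were quantile-normalised within each generation (all 24 arrays together for the comparison of generations), and replicate spots were averaged by probe. Group means were then modelled over all 39429 probes in F1, and over the 39423 with values on at least 2 arrays per group in F2 and in the interaction, with limma 3.58.1 (R 4.3.3) and Benjamini-Hochberg adjustment over all of them. For single genes an exact permutation test (two-sided, 924 splits) was added. The scripts were tested on simulated data. Probes were named through RefSeq (GRCm38.p6), which gave 26062 probes 1 symbol.

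The members and all lists were chosen with earlier results of these data known. All members are covered, and given in full are 10 genes chosen for their role (Camk2a, Camk2b, Nrgn, Dlg4, Ppp3ca, Prkaca, Creb1, Shank3, Mapk3 and Nlgn1), members with an unadjusted p under 0.05 in any comparison or with groups that did not overlap, and up to 3 pathway genes per direction and generation, of which 1 is not reported here. Slides, known from the array numbers, held 2 arrays of each diet. Alternatives comprised scaling, background correction, dim or irregular spots, slide, sex measure, array weights, choice of probe and each array left out.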

Additional observations from a re-analysis of the deposited data

Results flagged for a closer look

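Of 144 sets of 6 values (36 members in 4 groups), 10 held 1 array far from the other 5 by Dixon's test, where about 1 set in 20, or 7.2 sets, would by chance. MD F1 replicate 6 accounts for 6 of the 10. On it Dlg4 read 11.17 (the other MD F1 arrays 12.97 to 13.26), Nlgn3 10.88 (11.50 to 11.71), Shank3 12.08 (12.65 to 12.94), Shank1 9.13 (9.44 to 9.60), Dlgap3 15.22 (15.40 to 15.50) and Adcy8 9.63 (9.22 to 9.36), the last one being the only high value. The same array stood apart in its mean correlation with the F1 arrays, 0.985. The other 4 were spread over as many arrays. Camk2a read 13.60 on CD F1 replicate 1 (13.84 to 13.98 on the others) and Nrgn 15.55 on CD F1 replicate 5 (15.09 to 15.24). Dlg4 read 11.998 on CD F2 replicate 5 (11.26 to 11.41) and Camk2d 11.28 on MD F2 replicate 6 (10.47 to 10.62). CD F2 replicate 6 stood apart in spots above background (28000) and mean correlation (0.977), as did MD F2 replicate 3 (27383 and 0.974). None of the member values on these 2 arrays stood apart. The causes were not tested. No member's interaction of diet and generation passed an FDR of 0.1.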

How the results depend on the processing

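No member passed an FDR of 0.1 in F1, F2 or their difference under any alternative but 2. With no scaling between arrays, F1 gave 7 of 36 members at FDR and 14 at an unadjusted p under 0.05, all 14 lower. Over all 39429 probes, 7952 were called and 13919 had an unadjusted p under 0.05 by limma. The members' shares were thus near those of all probes. The members' median was −0.30 where the median of all probes was −0.28. F2 gave 1 member at p under 0.05 and the difference of generations a median of −0.30. With array weights F1 gave 2 members at FDR (Camkk2 −0.35 and Adcy8 0.22), F2 gave 4 at p under 0.05 with 1 lower, and the difference 9. The probes called over the whole array with these weights also rose in F1 and in the difference, as given below. Adcy8 in F1 was the only member with an unadjusted p under 0.05 to reverse, to −0.031 without scaling. Over 407 alternative values of the 13 differences past the unadjusted threshold, 383 kept direction and side of it, 23 kept direction only and 1 reversed. Not all of these were refits. The setting at an FDR of 0.05 read the main fit again, so it could only keep each difference. Second-brightest probes were also read from the main fit.

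Equal replicate numbers were not taken as pairs in the main fit. The correlation of deviations from the group means was over 0.1 in 1 of 6 pairs in F1 and 3 of 6 in F2. It spanned −0.053 to 0.21 in F1 and −0.17 to 0.19 in F2. Some of these pairs also shared a slide, so the correlations cannot show whether the arrays were paired. In F1, lower members at p under 0.05 numbered 8 with the replicate block and 3 with the sex measure. With the second-brightest probe of the 18 genes that had one, 16 were below 0 in F1 with a median of −0.17, 0 passed p under 0.05 in F2, and the difference gave 3 passing, all 3 lower, and 13 below 0. The mean of a gene's probes gave 11 in F1, 10 of them lower, and 1 in F2. For the settings of this paragraph the shares over all genes are not given here, so the members' counts cannot be set against a background. Leaving out 1 array gave 6 to 8 members at p under 0.05 in F1 (5 to 7 lower, 23 to 32 below 0, median −0.089 to −0.041), 2 to 4 in F2 (0 to 1 lower, 4 and 1 without CD F2 replicate 5, 12 to 20 below 0, median −0.022 to 0.040) and 4 to 7 in the difference (4 to 7 lower, 21 to 29 below 0, median −0.12 to −0.058), and 0 at FDR throughout.

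Probes called over the whole array moved far more. F1 (13) gave 4 with 75th percentile scaling, 7952 without scaling, 5 with normexp, 44 without dim probes, 0 with slide as a block, 0 with the replicate block, 0 with the sex measure, 3 with a robust variance trend, 540 with array weights, 73 with all 24 arrays in the fit, 0 at an FDR of 0.05 and 0 to 152 with 1 array left out (152 without MD F1 replicate 6, 34 without MD F1 replicate 1, 5 without CD F1 replicate 6, 0 without any other). F2 (0, with 2209 at an unadjusted p under 0.05 in limma) gave 18 with all 24 arrays in the fit and 0 to 1 with 1 left out (1 without MD F2 replicate 1 or 2). The difference of generations (5) gave 0 without scaling, 9 with normexp, 11 without dim probes, 27 with the replicate block, 12 with the sex measure, 543 with array weights, 47 without CD F2 replicate 6 and MD F2 replicate 3 and 3 to 41 with 1 array left out (41 without CD F2 replicate 6, 29 without MD F2 replicate 2, 20 without MD F1 replicate 1, 16 without CD F2 replicate 4, 10 without CD F2 replicate 5, 8 without CD F1 replicate 5, 3 without CD F1 replicate 2 or MD F2 replicate 5). The causes were not tested. Normexp used the median signals and, like leaving out those 2 arrays together, was added after seeing the data; normexp on mean signals was not run. Leaving out dim probes moved the counts of F1 and of the difference, and it also left fewer probes in the adjustment. The part of signal over background was not tested. At their brightest probes the members were above background on every array.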
